A study of Homo sapiens with 2 samples.

Results

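The genes described here encode the machinery that reads DNA into RNA in the nucleus: the subunits of RNA polymerases I, II and III, the general transcription factors TFIIA to TFIIH and TFIIIA and TFIIIC, the TBP-associated factors (TAFs), the Mediator complex and the cyclin-dependent kinases of transcription. They were picked by gene symbol, with earlier results of these data known. In the deposited list of chromatin regions bound in the experiment, 31 such symbols appeared in 33 of 4169 intervals, as 34 pairs of a gene and an interval. By machinery, 1 interval belonged to polymerase I, 29 to polymerase II and 3 to polymerase III. An interval is a region that the authors' peak caller marked as enriched, and its height is the authors' maximum fragment density within it.

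The experiment was chromatin immunoprecipitation with sequencing (ChIP-seq) in U-87 MG, a widely used line of human malignant glioma cells. Both libraries came from U-87 MG cells overexpressing sGCβ1, the haem-binding subunit of the nitric oxide receptor soluble guanylate cyclase, grown without treatment. There was 1 library precipitated with an antibody to sGCβ1 and 1 input library made without antibody, of which only the first has values used here. With a single ChIP library no value has a replicate error and no test between conditions exists, cells without the overexpressed subunit are not among the samples, and no source used here gives the read depth.

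Polymerase I transcribes the large ribosomal RNA precursor, polymerase II transcribes protein-coding genes and most small nuclear RNAs, and polymerase III transcribes transfer RNAs, 5S ribosomal RNA, U6 small nuclear RNA and other short RNAs. TFIID, built from TBP and TAFs, recognises polymerase II promoters; Mediator passes signals from activators to the polymerase, and its kinase module, with CDK8 and cyclin C, attaches reversibly. TFIIH opens the promoter and carries the kinase CDK7, and P-TEFb, with CDK9 and a cyclin T, releases paused polymerase. All genes described here, those of polymerases I and III included, are themselves transcribed by polymerase II.

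The tallest intervals at starts of these genes were followed into the reference sequence. Each line gives the bases around a summit in hg19, 5′ to 3′. The window at GTF2H1, the fourth in height, lay wholly in annotated untranslated sequence and is not printed, and 15 such bases were trimmed at TAF13. In the CDK8, POLR3E, TAF5 and TAF13 windows capitals mark CACGTG (an E-box), GGTTCGA (the core of the B box, the internal promoter element of tRNA genes), CCAAT and CCGGAAG (an ETS-type site), in that order.
CDK8, chr13:26827996-26828195, plus strand: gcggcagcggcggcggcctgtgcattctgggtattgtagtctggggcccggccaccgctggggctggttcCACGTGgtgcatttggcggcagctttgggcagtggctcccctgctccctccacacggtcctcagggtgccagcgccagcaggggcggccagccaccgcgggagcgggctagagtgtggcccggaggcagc
POLR3E, chr16:22308412-22308611, plus strand: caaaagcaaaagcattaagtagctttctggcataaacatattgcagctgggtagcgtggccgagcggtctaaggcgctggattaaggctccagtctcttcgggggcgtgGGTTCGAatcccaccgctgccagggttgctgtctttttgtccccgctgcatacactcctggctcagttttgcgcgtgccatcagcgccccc
TAF5, chr10:105127516-105127715, plus strand: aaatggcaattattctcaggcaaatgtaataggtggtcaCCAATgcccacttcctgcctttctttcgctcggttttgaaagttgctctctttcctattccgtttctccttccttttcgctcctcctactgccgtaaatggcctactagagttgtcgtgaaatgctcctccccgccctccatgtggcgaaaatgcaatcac
TAF13, chr1:109618635-109618819, minus strand: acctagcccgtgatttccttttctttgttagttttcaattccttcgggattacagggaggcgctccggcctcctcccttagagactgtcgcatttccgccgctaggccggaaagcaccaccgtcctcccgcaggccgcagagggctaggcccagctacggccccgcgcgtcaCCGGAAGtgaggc

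Of the 5 tallest intervals at starts of these genes, 2 had a short RNA gene that polymerase III transcribes within 1000 bp in RefSeq. That share was not counted over all tall intervals. The interval assigned to POLR3E, a subunit of polymerase III itself, ran from 22307579 to 22310605 on chromosome 16, with a height of 152 (rank 41 of all intervals), a score of 2042 (the authors' -10 log10 p from the peak caller) and its summit at -229 bp from the gene start, negative being upstream. RefSeq lists the leucine tRNA gene TRL-AAG2-4 within 1000 bp of the POLR3E start (its coordinates are of another build and are not given), and the B box core stands in the summit window printed above. The interval at MED16, a Mediator tail subunit, ran from 893022 to 894209 on chromosome 19 with a height of 54, a score of 349 and a summit at -254 bp. That summit was 12 bp outside RNU6-9, a U6 small nuclear RNA gene. Which of the neighbouring genes a fragment belongs to cannot be told apart within one interval.

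Tall intervals beside small RNA genes were found elsewhere in the list too. Among all 200 intervals of height 40 or more at any listed gene start, 14 (7%) had an annotated small RNA gene, tRNAs not included, within 200 bp of the summit, and 25 (12.5%) held the B box core in the summit window. Over all 411 intervals of that height, at starts or not, 22 (5.35%) had such a gene and 139 (33.8%) held the B box core. By the same 2 measures, the 5 tall intervals at starts of the genes described here gave 1 each (20%). Among intervals at starts of any height the shares were 2.15% and 2.69% of 1303. Of the 19 windows at starts of the genes described here, the B box core occurred in 1, that of POLR3E. Small RNA genes lay within 200 bp in 2, those of MED16 and POLR3D.

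Genes of these complexes carried intervals at 1.81 times the share of all protein-coding genes. To count genes without an interval as well, members were taken from the annotation, which has 119 protein-coding genes that meet the symbol rule, and older symbols were joined: POLR1F is listed as TWISTNB and POLR1G as CD3EAP. So counted, 33 of 119 genes (27.7%, exact binomial 95% interval 19.9 to 36.7) had an assigned interval, against 15.3% of 20136 protein-coding genes. With the summit within 1000 bp of the deposited gene start, 21 of 119 (17.6%, 11.3 to 25.7) had one, against 6.83%. These binomial intervals cover counting error only. The median G and C content over 200 bp at the gene starts was 66.5% both for the 119 genes and for all 20136. Expression was not measured in these samples. Whether base composition or expression had a part in the difference was not tested.

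The 3 machineries could not be told apart by the share of their genes with an interval. Subunits shared between polymerases were counted under 1 machinery only, by symbol. POLR1C and POLR1D were placed with polymerase I, and POLR2E, POLR2F, POLR2H, POLR2K and POLR2L with polymerase II. For polymerase I, with its subunits and the TAFs of its promoter factor SL1, 3 of 12 genes (25%, 5.49 to 57.2) had an interval, all within 1000 bp of a start. For polymerase II it was 27 of 90 (30%, 20.8 to 40.6), of which 15 genes (16.7%, 9.64 to 26) had one at the start. For polymerase III, with TFIIIA and TFIIIC, it was 3 of 17 (17.6%, 3.80 to 43.4), all at starts. The 3 ranges overlap, and each holds the range from 20.8 to 40.6. With symbols taken exactly as deposited polymerase I had 1 of 12 (8.33%), below the 13.4% of all genes counted that way. When each interval was given only to its nearest listed start, polymerase III kept 1 of 17 (5.88%), below 10.9% of all genes.

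**Figure D1:**
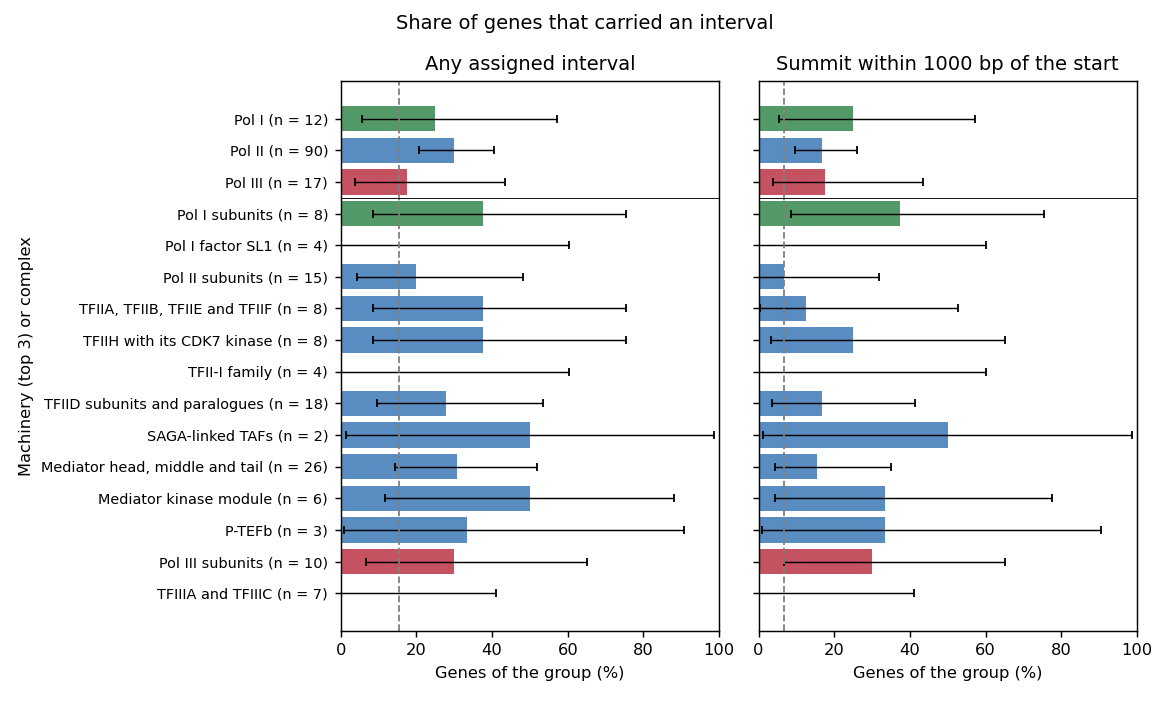
Share of genes in each machinery (top 3 bars) and complex, in percent, with any assigned interval (left) and with a summit within 1000 bp of the start (right). Bars are shares, black lines exact binomial 95% intervals and dashed lines the shares of all protein-coding genes (15.3% and 6.83%). The ranges of polymerase I (green), II (blue) and III (red) overlap, and SL1, TFII-I and TFIIIA and TFIIIC genes had none.

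Within polymerase I, 3 of 8 subunit genes (37.5%, 8.52 to 75.5) and 0 of 4 SL1 genes (0 to 60.2) had an interval, and both ranges include the 15.3% of all coding genes. POLR1A, the largest subunit, had a height of 27 on chromosome 2 (86332511 to 86333752), with the summit 126 bp inside the gene and at -153 bp from the start of PTCD3, which runs the other way. POLR1G, listed as CD3EAP, had a height of 39 on chromosome 19 (45908053 to 45910430), in an interval shared with PPP1R13L. Its summit was deposited as 261 bp into the gene. The annotation places that summit outside POLR1G, 174 bp from the nearest POLR1G coding start. POLR1F, listed as TWISTNB, had a height of 15 at 148 bp on chromosome 7 (19747673 to 19749242). All 3 intervals exceeded the median height of 14 over the whole list. No interval was listed for POLR1B, POLR1C, POLR1D, POLR1E or POLR1H, nor for TAF1A, TAF1B, TAF1C or TAF1D, the TAFs of SL1.

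Within polymerase III, heights spread from 11 to 152 at 3 subunit genes. POLR3GL, a paralogue of the subunit POLR3G, had 14 with the summit at -333 bp on chromosome 1 (145470224 to 145471252), 212 bp inside ANKRD34A. POLR3D had 11 at -179 bp, 35 bp from the microRNA gene MIR320A. Only POLR3E, beside its tRNA gene, stood above the median of the list. The 7 genes of TFIIIA and TFIIIC (GTF3A and GTF3C1 to GTF3C6), which recognise the internal promoters of 5S and tRNA genes, had no interval, and neither did POLR3A and POLR3B, the catalytic subunits, nor POLR3G or the remaining subunit genes. For 0 of 7 genes the exact upper bound of the share is 41%, which includes the 15.3% of all coding genes.

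Subunits shared between polymerases had intervals at about the share of all coding genes. POLR1C and POLR1D serve polymerases I and III, and POLR2E, POLR2F, POLR2H, POLR2K and POLR2L serve all 3. Of these 7 genes none had an interval at the start (6.83% of all coding genes had one) and POLR2L alone had one elsewhere (15.3% had any), of height 15 and 7425 bp from its start, with the summit 90 bp from an annotated start of CD151.

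Polymerase II subunit genes had intervals at about the share of all coding genes. An interval was assigned to 3 of 15 (20%, against 15.3%), and POLR2I alone had one at its own start (6.67%, against 6.83%). That interval, on chromosome 19 (36605026 to 36607641), had a height of 21 with the summit 350 bp into POLR2I and at -32 bp from the start of TBCB, a tubulin folding cofactor. POLR2G had 17, but 9645 bp from its start, in the interval at the start of TAF6L (-219 bp; chromosome 11, 62538060 to 62540000). Neither POLR2A, which carries the repeated C-terminal tail of the enzyme, nor POLR2B, its catalytic partner, had an interval. The copies POLR2J, POLR2J2 and POLR2J3 had none either; only uniquely aligned reads were kept by the authors, and of the 75-base stretches within 500 bp of their starts 34.8% to 48.1% occur once in the genome.

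General initiation factors had low intervals apart from one. GTF2H1, the p62 subunit of TFIIH, had a height of 60 and a score of 823 on chromosome 11 (18342985 to 18344814), 152 bp into the gene and at -247 bp from the start of the divergent gene HPS5. GTF2H5, the smallest TFIIH subunit, had 14 at 157 bp on chromosome 6 (158588612 to 158590169). GTF2F1 of TFIIF had 14 at -437 bp from its deposited start on chromosome 19 (6393144 to 6394239). The annotation places that summit in a GTF2F1 intron, 264 bp from the nearest GTF2F1 coding start. Other intervals of this group lay inside or past genes: GTF2F2 had 15 at 22201 bp and 15 at 86041 bp, both intronic, GTF2E1 had 12 at 38687 bp in an exon, and CCNH, the cyclin of CDK7, had 12 at 19636 bp. No interval was listed for CDK7, GTF2B, GTF2A1, GTF2A1L, GTF2A2, GTF2E2, GTF2H3 or GTF2H4. None was listed either for GTF2H2, GTF2H2C or the 4 TFII-I family genes (GTF2I, GTF2IRD1, GTF2IRD2 and GTF2IRD2B), but 0% to 41.6% of the stretches at the starts of GTF2H2, GTF2H2C, GTF2IRD2 and GTF2IRD2B are unique.

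TFIID genes held 1 interval of height 40 or more at a start, that of TAF5, and another, listed for TAF10, away from the TAF10 start. In all, 5 of 18 genes (27.8%, against 15.3% of all coding genes) had an interval, 3 of them (16.7%, against 6.83%) at the start. TAF5, a scaffold subunit, had a height of 93 on chromosome 10 (105127136 to 105128818), rank 142, with a score of 1336, at -108 bp, and a second interval of 21 at -7212 bp, away from any coding start. TAF13, a histone-fold subunit, had 34 at -96 bp on chromosome 1 (109617798 to 109619475), and TAF15, an RNA-binding protein, had 22 at -200 bp on chromosome 17 (34135620 to 34137215). The interval of 42 assigned to TAF10 lay 7195 bp from it and 52 bp into TPP1, a lysosomal protease gene. That of TAF12, with 13, was listed 5740 bp upstream and 232 bp downstream of the start of RNU11. The annotation, however, has a TAF12 transcript starting 541 bp from the summit. The other 13 of 18 TFIID genes, among them the largest subunit TAF1 with TAF2, TAF3, TAF4 and TAF6, had none. The paralogues TAF6L and TAF5L, linked to the coactivator SAGA, were counted apart from TFIID. TAF6L had 17 at -219 bp and TAF5L had none.

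**Figure D2:**
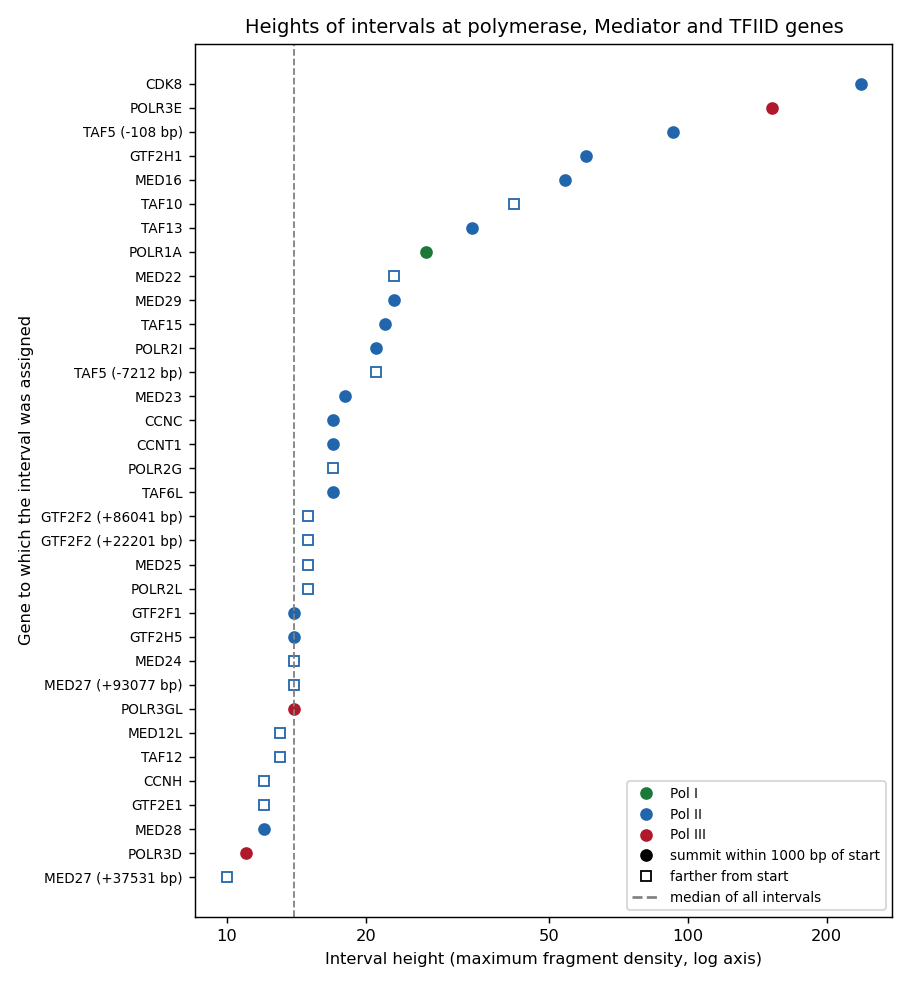
Height of each interval (maximum fragment density, log axis) for the 34 pairs of a gene and an interval, by polymerase machinery (colour), with filled circles for summits within 1000 bp of the gene start and open squares for summits farther away. The dashed line is the median of all 4169 intervals, 14; CDK8 (237), POLR3E (152) and TAF5 (93) stand apart from the rest, and POLR2G and TAF6L share 1 interval.

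Mediator genes included the tallest interval of the set, at a kinase gene. CDK8 had a height of 237, rank 4 of the list, and a score of 3100, at -660 bp from its deposited start on chromosome 13 (26827387 to 26828776). The nearest CDK8 transcript start in the annotation was 170 bp from the summit. Its partner CCNC, encoding cyclin C, had 17 at 18 bp into the gene on chromosome 6 (100016041 to 100017280). The other kinase module genes MED12, MED13 and MED13L had none, and MED12L had 13 in an intron, 218300 bp from its start.

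In the head, middle and tail of Mediator 8 of 26 genes had an interval (30.8%, against 15.3% of all coding genes), 4 of them at the start (15.4%, against 6.83%). Besides MED16, MED29 of the tail had 23 at 53 bp. MED23, also of the tail, had 18 at 115 bp on chromosome 6 (131948664 to 131949841), and MED28 of the head had 12 at -177 bp on chromosome 4 (17615674 to 17616479). The MED29 interval, on chromosome 19 (39880910 to 39882766), also lay 337 bp upstream of PAF1, a subunit of the elongation complex of that name. MED22 (23, at the start of SURF6), MED25 (15, at that of FUZ), MED24 (14, past its end) and MED27 (14 and 10, both intronic) had intervals only elsewhere. The remaining 18, among them MED1, the contact of nuclear receptors, and the scaffold MED14, had none. In P-TEFb, the cyclin gene CCNT1 had 17 at 93 bp on chromosome 12 (49110009 to 49111291), while CDK9 and CCNT2 had none.

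At starts, where the limit of 1000 bp itself sets how far a summit can lie, distances were like those of other genes. The 19 genes had summits from -660 to 350 bp. Their median distance was 177 bp, against 194 bp over all 1589 pairs of a gene and an interval within the limit. By the deposited position, 11 summits lay upstream and 8 inside the gene. All 19 intervals spanned the start and all were counted by the authors as overlapping a CpG island (100%, 82.4 to 100), against 1187 of 1303 (91.1%) for all intervals at listed starts. A second listed gene started within 1000 bp in 7 of the 19 (36.8%), against 280 of 1303 (21.5%). An interval with a second listed start has more chances of being picked by gene symbol, which by itself raises the first share. The comparison therefore cannot show whether the genes described here share their intervals with other starts more often than other genes do. Median height was 21 (order-statistic 95% interval 14 to 54), an interval that includes the 16 of all start intervals. Of the 33 intervals, 6 (18.2%) had a height of at least 40, against 9.86% of the whole list. Start intervals made up 19 of the 33 but 1303 of the 4169 in the list, so these shares differ in position too. At starts alone it was 5 of 19 (26.3%), against 15.3% of all start intervals.

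**Figure D3:**
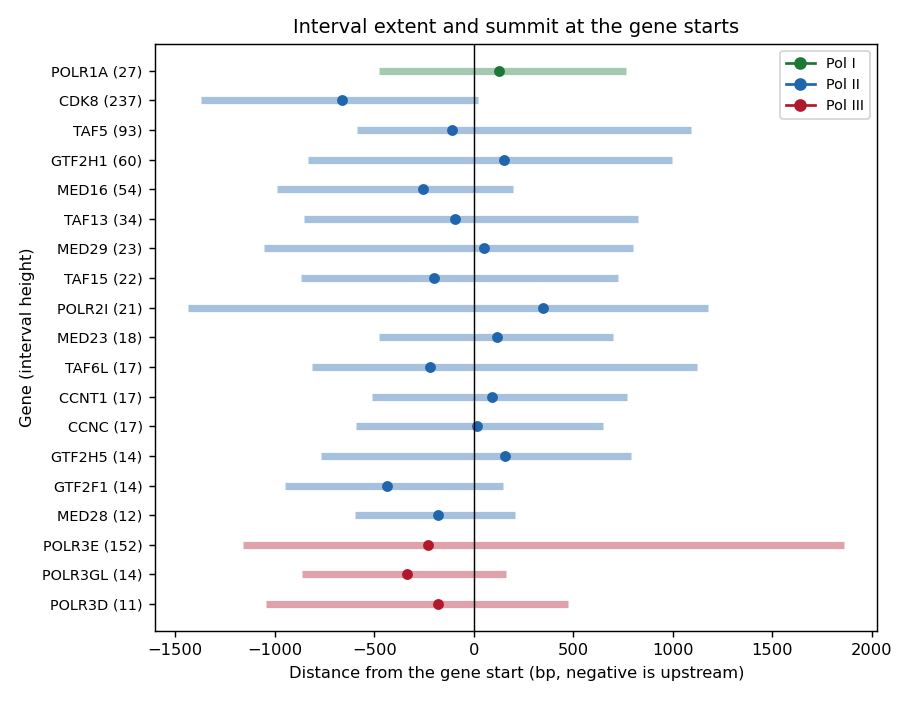
Extent (bar) and summit (dot) of the interval at each of the 19 gene starts, in bp from the deposited start with negative values upstream, coloured by machinery and with the height in brackets. Every bar crosses 0, and summits lie between -660 bp at CDK8 and 350 bp at POLR2I.

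Intervals away from these gene starts numbered 14, with a median height of 14.5, and 1 of them (7.14%) reached 40. Over the 2866 intervals away from the start of any listed gene the median was 14, and 7.36% reached 40. The 2 sets are unlike, because some of the 14 lay at starts of other listed genes, which the 2866 leave out. CpG islands were overlapped by 3 of the 14 (21.4%), against 9.49% of the 2866, and all 3 had a coding start within 1000 bp. In 5 of the 14 (those of MED22, MED25, POLR2L, TAF10 and TAF12) a coding start lay within 1000 bp, and heights ran from 13 to 42. The other 9, of GTF2F2, MED27, MED12L, MED24, GTF2E1, CCNH and the second of TAF5, ran from 10 to 21, had no CpG island and lay within introns in 6 cases.

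Sequence words at the 19 starts occurred at shares within the counting error of other starts with intervals. The E-box CACGTG and CGTGAC were each found in 5 of 19 windows of 200 bp (26.3%, 9.15 to 51.2), on either strand, against 14% and 16.4% of 1303 windows at starts with an interval and 5.66% and 8.02% of windows at all 20136 coding starts. These words can overlap, and CCNT1, MED28 and TAF6L held both. CGCGAC and CGTCGC were found in 2 each (10.5%, against 12.6% and 14.9% at starts with an interval and 10.2% and 11.7% at all coding starts). In the same order of comparison, CCGGAAG was found in 4 (21.1%, against 9.9% and 11.2%) and CCAAT in 5 (26.3%, against 18.7% and 25.1%). GGGCGG, the GC box, was found in 9 (47.4%, against 39.3% and 53.2%) and TATAAA in 1, at MED16 (5.26%, against 3.84% and 6.67%). TGANTCA, the AP-1 site, was in none of the 19, with an exact upper bound of 17.6%, against 3.53% and 3.05%.

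Other factors of the same pathways were taken from a list of 56 genes that the symbol rule does not cover. They had intervals at a like share, 17 of 56 (30.4%, 18.8 to 44.1, against 15.3% of all coding genes), with 11 (19.6%, against 6.83%) at the start. That list was also chosen with earlier results of these data known, so its share is no independent support for that of the genes described above. Among 34 elongation factors 11 (32.4%) had an interval: LEO1 of the Paf1 complex was tallest with 234, followed at its own start by AFF4, the scaffold of the super elongation complex, with 57 at -6 bp. PAF1 (23), CDK13 (20), AFF1 (18 at -298 bp), HEXIM1 (16), SUPT16H (14) and CTR9 (11) also had one within 1000 bp. A taller AFF1 interval, of 21, lay 71974 bp from the deposited start but 12 bp from another annotated AFF1 start. The 146 listed for SUPT5H lay 9530 bp upstream of its deposited start, at the start of RPS16, although the annotation has a SUPT5H transcript starting 140 bp from the summit. For polymerase I, the initiation factor gene RRN3 had 13 at 110 bp, and for polymerase III SNAPC1 had 14 at 109 bp. SNAPC1 was the 1 gene with an interval among 11 that include BRF1, BDP1 and the other SNAPC genes (9.09%, 0.23 to 41.3). Of all coding genes, 15.3% had any interval and 6.83% had one at the start. Of 7 further initiation factors 4 had an interval. TBPL1 had 13 at -861 bp from its deposited start, although the annotation has a TBPL1 transcript starting 16 bp from the summit. TBPL2 had 15 at -7905 bp and ERCC2, a TFIIH helicase, had 15 at -9291 bp. CDK19, the paralogue of CDK8, had 32 and 13 in introns, 114300 and 186876 bp from its start, whereas TBP had none.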

How the data were processed

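The 75-nt reads were aligned to hg19 with BWA, and reads with more than 2 mismatches or no unique position were dropped, per the series' design text; intervals were called with MACS. No source used here gives tool versions, the read total or the control used for calling; depth is therefore unknown, and the input library was not analysed here. Each deposited interval carries a signal (maximum and mean fragment density), a score (-10 log10 p) and other columns, the authors' counts of CpG islands, promoters and genes, per the file headers. Of the summits, 92.5% are multiples of 16 bp.

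Python 3.11.15, pandas 2.3.3 and scipy 1.17.1 were used. Of 3677 listed symbols 3088 matched a protein-coding gene of GENCODE 44 on GRCh37, 391 through an older symbol; 3 symbols of the symbol rule (POLR2J4, GTF2H2B and GTF2H2D) are not protein-coding there. Shares have exact (Clopper-Pearson) binomial 95% intervals, for counting error only. With 1 ChIP library no test was run. Members and gene lists were chosen with earlier results of these data known. Genes with a summit within 1000 bp of their start and the 10 tallest intervals were named in full, and other genes by count or name; windows of the 6 tallest start intervals under a deposited symbol of the rule (so not POLR1G, listed as CD3EAP) were considered for printing, of which that at MED16 is not reported here. Sequences come from the GRCh37 reference, and the neighbouring tRNA from the RefSeq table. The counting steps were tested on simulated data. The alternatives were other score, height and window limits, assignment to the nearest start, annotated starts and, chosen after seeing the data, symbols as deposited, genes with unique starts only and the B box core.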

Additional observations from a re-analysis of the deposited data

How the results depend on the processing

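No paired analysis was possible because there is 1 ChIP library and no result comes from a test. The share of genes with any interval stayed above that of all protein-coding genes under 7 of 7 settings for all genes described (ratios 1.62 to 2.22) and for polymerase II (1.63 to 2.42), under 6 of 7 for polymerase I (0.622 to 3.49; below with symbols as deposited) and under 5 of 7 for polymerase III (0.541 to 1.38; below with nearest starts only and from the median score up, 0.674). The share at starts stayed above it under 8 of 8 settings for all genes (2.17 to 3.19), polymerase I (1.42 to 7.26), II (2.09 to 3.1) and III (1.46 to 3.05). The shares themselves fell with stricter limits. All genes with any interval came to 19.3% with intervals from the median score up, 8.4% with those in its upper quartile and 17.6% with the nearest start only, against 8.73%, 4.78% and 10.9% of all genes. At starts they came to 6.72% in the upper quartile of score, against 2.29%. Polymerase II came to 7.78% in the upper quartile of score, 20% with the nearest start only and 5.56% at starts in the upper quartile of score. The other pathway genes came to 12.5%, and to 7.14% at starts, in the upper quartile of score. The height percentile of the 1 polymerase I interval, 87.1, was 85.5 by score and 82 by mean density, and it was 74.4 among intervals from the median score up, 50.1 in the upper quartile of score and 78.8 from the median height up. In 100 bp windows CGTGAC and CCGGAAG each fell to 5.26%, and CGTCGC and TATAAA to 0%. In 400 bp windows CGCGAC rose to 31.6%, CGTCGC to 26.3%, CCAAT to 47.4%, and the AP-1 site, the TATA box and the B box core to 10.5% each. Shares at other starts are not given for 100 and 400 bp windows, and those in 200 bp windows are no comparison for them. Score limits and nearest starts leave fewer intervals or assignments to count, and window length sets the bases searched; why the percentile differed by score and mean density was not tested. The lack of a replicate and of a read total limits all values: a gene without an interval is not shown to be unbound.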
